A study of Mus musculus with 6 samples.

Results

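The 32 genes described here mark the cells that line blood and lymph vessels. They were listed by name, with earlier results of these data known, so no test over the list was made. They are adhesion molecules and receptors of the vessel wall, the transcription factors that set the endothelial state, and the lymphatic genes Prox1 and Pdpn. All 32 had a probe set, out of 18193 genes that could be named on the array. Each gene is represented by its brightest probe set, taken as the highest mean over the 6 arrays with an annotation to 1 gene only. Of the 32 genes, 31 were bright enough to be tested. Clec14a and Tal1 passed that filter only through their level in the knockout, and Prox1 did not pass it.

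Total RNA of the mammary gland was measured in 3 wild-type mice and 3 Elf5 knockout (KO) mice, labelled as biological replicates, on 1 one-colour Affymetrix array each. Elf5 is an ETS transcription factor of the secretory epithelium. Pregnancy day 17 is the stage on every sample label, but lactation day 1 is the stage in the series' design text. The labels do not give the strain, the allele, any Cre driver or the age of the mice. Signals below are the deposited linear MAS5 units. Differences are Elf5 KO minus wild type on the log2(signal + 16) scale, which understates the change of dim genes. They carry limma's standard error (SE, n = 3 arrays per group) and a p adjusted by Benjamini-Hochberg over all 10916 genes tested, with a threshold of 0.05.

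Endothelial cells form the inner lining of vessels. They are joined by VE-cadherin, claudin-5 and PECAM1, and respond to vascular endothelial growth factors (VEGFs) and angiopoietins through receptor tyrosine kinases. Transcription factors of the ETS and SoxF families keep the endothelial programme on. In the mammary gland the capillary bed grows around the alveoli during pregnancy and supplies the secretory cells. Lymphatic vessels drain the gland, and their identity is set by Prox1. In RNA from a tissue of many cell types, fewer cells of a type and less RNA per cell cannot be told apart.

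KO array 3 stood apart in RNA quality by both control genes, and KO array 2 by Gapdh alone. Gapdh has control probe sets at both ends of its transcript, and their 3'/5' ratio, near 1 for intact RNA, was 0.833 to 1.09 in wild type, 0.802 in KO array 1, 3.89 in KO array 2 and 13.6 in KO array 3, while that of Actb was 1.20 to 2.04 in wild type and 1.58, 1.87 and 21.0 in KO arrays 1, 2 and 3. For many genes the value of KO array 1 alone against the wild-type mean is given too. Over all genes tested 135 were called, 1.24% of them, with 1.13% higher and 0.11% lower in the KO. Elf5 itself read 12011, 8044 and 7244 in wild type against 5616, 4361 and 3128 in the KO, so the groups did not overlap (difference -1.06 ± 0.32, adjusted p = 0.109; 0.0151 with the replicate number as a block, called the replicate block below). Its dimmer probe set differed by -1.83, so on both probe sets Elf5 signal was lower in the KO but remained well above the filter. Beside a gene's difference, the adjusted p with the replicate block is given below only where it was under 0.05. The pairing behind the block comes from these data.

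Among the vessel genes 2 of 31 rose, against 1.13% of all genes tested, and none fell, against 0.11%. They were Vwf, which encodes the clotting carrier von Willebrand factor, and Calcrl, the receptor of the vasoactive peptide adrenomedullin. The other 29 did not pass the test, although 24 of 31 had a higher mean in the KO, against 53.9% of all genes tested. The median difference of the 31 was 0.34, against 0.06 over all genes tested. In 10 of 31, or 32.3%, all 3 KO arrays read above all 3 wild-type arrays, against 16.7% of all genes. They were Vwf, Calcrl, Ramp2, Ptprb, Sox17, Sox7, Mmrn2, Clec14a, Lyl1 and Pdpn. Without Clec14a and Tal1, whose direction the filter fixed, 22 of 29 had a higher mean, 9 of 29 were separated, 2 were called, and the median was 0.29. No vessel gene tested lay wholly below wild type, against 10.6% of all genes. KO arrays 1 and 2 without KO array 3 lay above all wild-type arrays for 14 of 31 genes, against 21.0% of all genes, and below them for 0 of 31, against 12.7%. Because the list was chosen with earlier results of these data known, these shares are a description and were not tested.

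**Figure D1:**
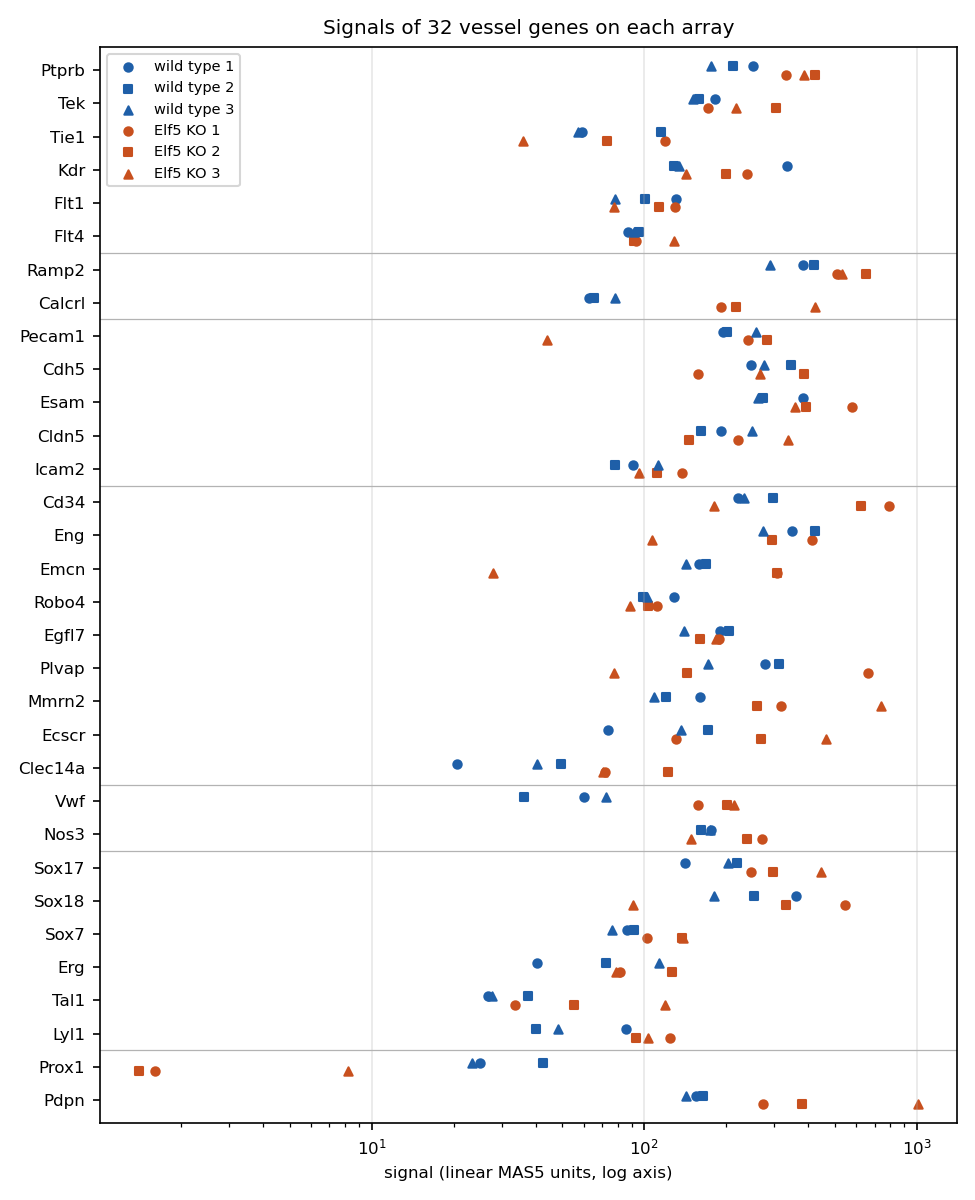
Signal of each of the 32 vessel genes (rows, grouped by role) on each array, in linear MAS5 units on a log axis; blue marks are wild-type mice, orange marks Elf5 KO mice, and the marker shape gives the replicate number. Calcrl, Vwf, Mmrn2 and Pdpn separate fully by group, whereas Pecam1 and Emcn have 1 KO array, number 3, far below the rest.

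Vwf is made by endothelial cells and megakaryocytes and stored for release on injury. It read 60.3, 36.3 and 72.7 in wild type (arrays 1, 2 and 3, the order used throughout) against 158, 201 and 213 in the KO. Every KO value was more than any wild-type value, with means of 56.4 ± 18.5 and 191 ± 29.0 (SD, n = 3). Vwf rose by 1.54 ± 0.31 (SE), a 2.90-fold change on the scale used (limma adjusted p = 0.0498). It had 1 probe set. Platelet and megakaryocyte markers were near the floor: 6 of 9 with a probe set were too dim to test, and Gp9, picked as an example after its values were seen, read at most 9.5 on any array. The platelet chemokine Pf4, which macrophages also make, read 348 to 415 in wild type and 578 to 1076 in the KO (1.01 ± 0.31, adjusted p = 0.116; 0.0447 with the replicate block), and the integrin gene Itga2b differed by 0.18. The summed signal of the 9 platelet genes was 610 to 698 in wild type and 823 to 1433 in the KO. Without Pf4 the other 8 summed to 260 to 283 in wild type and 245 to 358 in the KO, which overlapped. The part of platelet RNA in the Vwf result was not tested.

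Calcrl forms the adrenomedullin receptor together with Ramp2, which carries it to the membrane and sets its ligand choice. Calcrl read 62.8, 65.2 and 78.2 in wild type against 192, 216 and 423 in the KO. The lowest KO value exceeded the highest wild-type value, and KO array 3 was highest. Calcrl rose by 1.71 ± 0.34, or 3.28-fold (adjusted p = 0.0494). Its other probe sets were dim, with mean signals of 20.8 and 6.3, and differed by -0.31 and 0.02. Ramp2 read 382, 418 and 289 in wild type against 510, 651 and 530 in the KO, again without overlap, and was higher by 0.62 ± 0.29 (adjusted p = 0.244). Their ligand Adm read 59.8, 23.0 and 48.2 against 97.5, 92.3 and 320. All KO values were above wild type, with a difference of 1.48 ± 0.47 (adjusted p = 0.121; 0.0345 with the replicate block) and 0.67 on a dimmer probe set. Adm passed the filter only through its level in the KO, which fixed its direction. The name of its brighter probe set marks possible cross-hybridisation. Receptor and partner thus each separated the groups, but only Calcrl passed.

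Both calls sat at the threshold. The differences kept their sign in all 17 alternative settings, between 1.09 and 1.78 for Vwf and between 0.48 and 1.92 for Calcrl, the lowest for Calcrl being the mean over its 3 probe sets. The adjusted p for Vwf was 0.130, 0.225 and 0.146 without wild-type array 1, 2 or 3, and 0.0215, 0.150 and 0.0883 without KO array 1, 2 or 3. For Calcrl the corresponding values were 0.134, 0.218, 0.159, 0.0180, 0.129 and 0.0701. In KO array 1, whose Gapdh ratio was like that of wild type, Vwf and Calcrl each lay 1.30 above the wild-type mean, with no call (adjusted p = 0.351 and 0.280, KO array 1 being assumed to vary like wild type). When a gene's probe set was chosen by its linear mean, which left the probe set of all 32 vessel genes as it was, 118 genes were called and the adjusted p became 0.0523 for Vwf and 0.0517 for Calcrl. With the replicate number as a block, 5 of 31 vessel genes rose, against 7.7% of all genes, and 0 fell, against 4.53%. They were Calcrl (adjusted p = 0.0138), Vwf (0.0171), Mmrn2 (0.0354), Pdpn (0.0391) and Clec14a (0.0475), or 4 of 29 without Clec14a and Tal1. The other vessel genes whose KO arrays all lay above wild type did not pass with the block. They were Lyl1 (0.0842), Ptprb (0.0907), Sox17 (0.103), Ramp2 (0.143) and Sox7 (0.234).

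**Figure D2:**
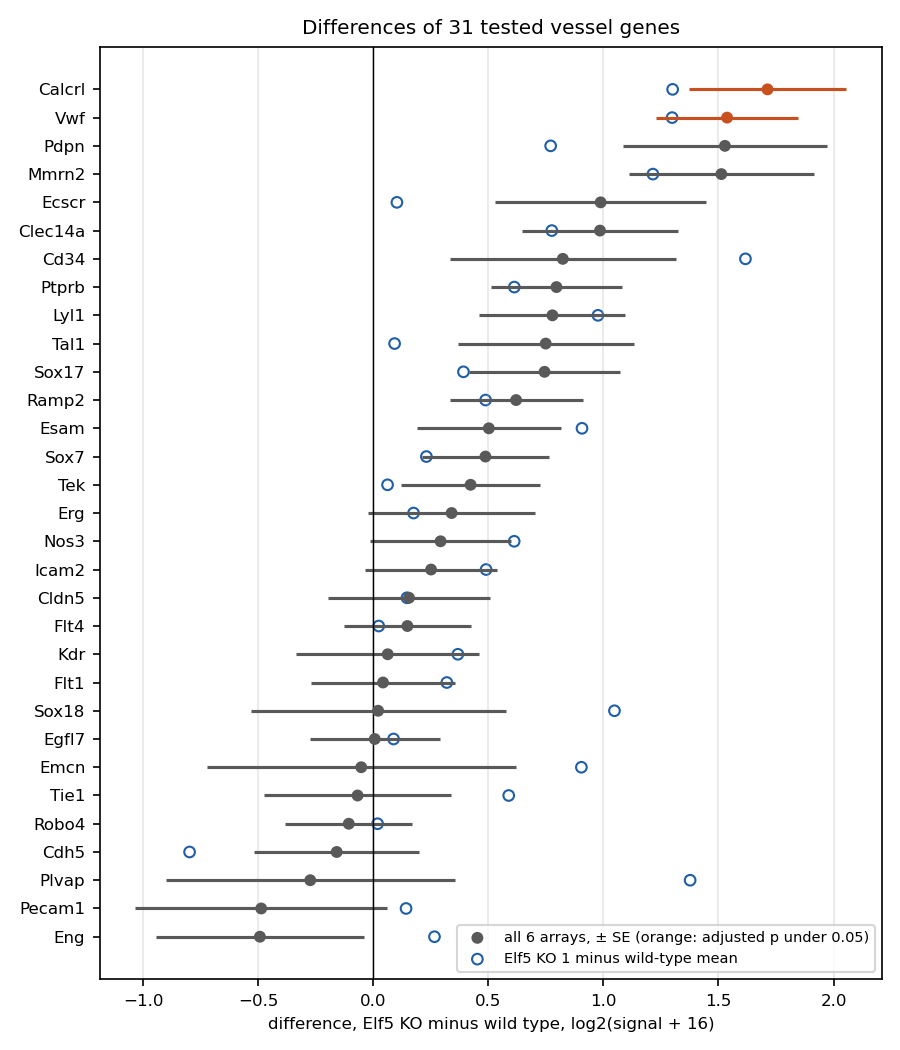
Difference between Elf5 KO and wild type, log2(signal + 16), for the 31 vessel genes tested (rows); filled points are the estimate over all 6 arrays with limma's SE as a bar, orange where the adjusted p was under 0.05, and open circles are KO array 1 minus the wild-type mean. Calcrl and Vwf lie at 1.71 and 1.54; Plvap, Sox18, Emcn and Cd34 lie well to the right in KO array 1 alone.

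The promoter of Calcrl is shown because Calcrl was the only called vessel gene with an entry in the RefSeq promoter table. Beside it is the Egfl7 promoter that held the most AGGAAG matches among those of the 18 vessel genes with an entry. The difference of Egfl7 was 0.01. ETS factors, the class of both Elf5 and the endothelial regulator Erg, bind a GGAA core. Both sequences are 250 bases before the gene start from RefSeq (GRCm38.p6), 5′ to 3′ on the gene's strand, with AGGAAG and its reverse complement CTTCCT in capitals. Calcrl lies on the minus strand at chr2:84425267-84425516, and Egfl7 on the plus strand at chr2:26580833-26581082.
Calcrl: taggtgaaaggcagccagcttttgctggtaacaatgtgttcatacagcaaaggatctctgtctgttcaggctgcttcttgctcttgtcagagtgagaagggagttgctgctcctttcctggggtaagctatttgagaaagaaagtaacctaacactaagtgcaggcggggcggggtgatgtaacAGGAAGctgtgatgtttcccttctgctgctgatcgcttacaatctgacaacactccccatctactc
Egfl7: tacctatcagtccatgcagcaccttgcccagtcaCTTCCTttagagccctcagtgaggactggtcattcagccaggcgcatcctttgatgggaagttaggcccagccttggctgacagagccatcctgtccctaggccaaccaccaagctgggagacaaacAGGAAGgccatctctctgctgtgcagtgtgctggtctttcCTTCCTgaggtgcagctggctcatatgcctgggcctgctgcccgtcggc

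Calcrl held 1 AGGAAG, 66 to 61 bases before the gene start. The Egfl7 promoter shown held 3, the nearest 49 to 44 bases before its start. Other Egfl7 promoters in the RefSeq table held 1 and 0. Of the 32 vessel genes 18 matched the table, with 24 promoters. AGGAAG or its reverse complement lay in 10 of 24 (41.7%), against 29.5% of all 32851 promoters of the same length. The other ETS context, CCGGAA, lay in 2 of 24 (8.33%, those of Kdr and Lyl1), against 12.0% of all. A GGAA core counts under at most 1 of these contexts. A SoxF-like site (ACAATG) and a GATA site (AGATAA) were each in 2 of 24 promoters, against 10.7% and 9.99% of all, and the E-box CAGATG in 4 of 24, against 14.4%. All motifs were searched on both strands, and a match is a string of letters, not a bound site.

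None of the 3 VEGF receptors passed the test, and their probe sets did not share a direction. Kdr, the main signalling receptor of Vegfa, read 335, 128 and 134 in wild type against 238, 200 and 142 in the KO. Wild-type array 1 was the highest of all, the groups overlapped, and the difference was 0.06 ± 0.40 (adjusted p = 0.939; 0.37 in KO array 1). Flt1, which binds Vegfa and Pgf and acts largely as a sink, read 131, 100.7 and 78.1 against 130, 113 and 77.3 (0.04 ± 0.31). Its 3 other probe sets had lower means in the KO, at -0.37, -0.34 and -0.82, the last with all KO arrays below wild type. Flt4, the receptor of Vegfc and Vegfd on lymphatic vessels, read 87.3, 96.0 and 91.7 against 93.4, 91.4 and 128. Only KO array 3 stood above wild type, and the difference was 0.15 ± 0.28 (adjusted p = 0.774), against -0.29 on a dimmer probe set.

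Their ligands moved in both directions. Vegfd, a ligand of Flt4, read 109, 58.2 and 47.5 in wild type against 246, 307 and 259 in the KO. The groups were far apart, and Vegfd rose by 1.77 ± 0.33 (adjusted p = 0.0446), and by 1.80 and 2.11 on its other probe sets. Pgf, the placental growth factor that binds Flt1, read 20.7, 38.2 and 33.8 against 61.4, 120 and 140 (1.35 ± 0.35, adjusted p = 0.0793; 0.0195 with the replicate block). The filter fixed the direction of Pgf, which passed it only through its KO level. Vegfc read 40.6, 35.5 and 62.1 against 66.6, 80.0 and 68.0, all KO values above wild type (0.52 ± 0.29, adjusted p = 0.317), and it was higher by 1.5 and 0.82 on its other probe sets. Vegfa, by contrast, read 524, 674 and 722 against 295, 582 and 323, with overlap only through KO array 2 (-0.71 ± 0.34, adjusted p = 0.250), and its dimmer probe set differed by -1.54. Vegfb differed by 0.05 ± 0.43. The co-receptor Nrp1 read 198, 487 and 402 against 428, 961 and 1917 (1.40 ± 0.53, adjusted p = 0.173; 0.0295 with the replicate block), while KO array 1 lay 0.32 above the wild-type mean. Its relative Nrp2 differed by 0.24 ± 0.29.

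The Tie receptors bind angiopoietins and keep vessels quiescent. Tek, the angiopoietin receptor, read 182, 159 and 151 in wild type against 172, 304 and 217 in the KO (0.42 ± 0.30, adjusted p = 0.427). KO array 1 lay within wild type, at 0.06 above its mean. Tie1, the orphan partner of Tek, read 59.1, 115 and 57.0 against 119, 73.2 and 36.0, from the highest to the lowest of all arrays within the KO (-0.07 ± 0.41). Ptprb, the endothelial phosphatase that restrains Tek, read 250, 212 and 176 against 330, 423 and 384, without overlap. It was higher by 0.80 ± 0.29 (adjusted p = 0.157; unadjusted p = 0.0195). Another Ptprb probe set, not much dimmer, read 332, 156 and 123 against 404, 109 and 132 and differed by -0.03. The agonist Angpt1 read 885, 1555 and 1145 in wild type against 555, 476 and 279 in the KO. All KO values were below wild type, with a difference of -1.44 ± 0.35 (adjusted p = 0.0722; 0.0264 with the replicate block) and -2.38 on a dimmer probe set. Angpt2, its context-dependent antagonist, differed by 0.18 ± 0.27.

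**Figure D3:**
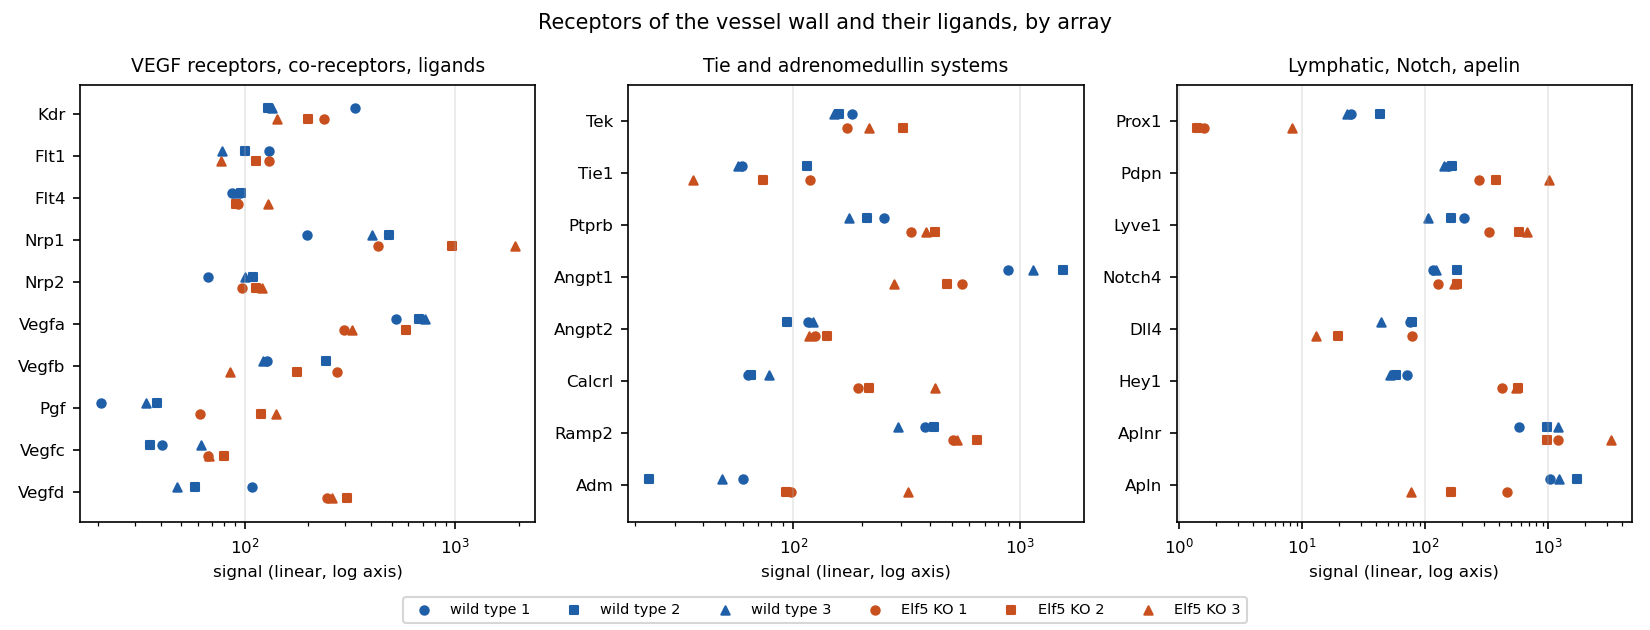
Signals of receptors, co-receptors and ligands on each array, in linear MAS5 units on a log axis, for the VEGF system (left), the Tie and adrenomedullin systems (middle) and lymphatic, Notch and apelin genes (right); blue is wild type, orange Elf5 KO, and marker shape the replicate number. Vegfd, Calcrl and Hey1 lie to the right of wild type in all 3 KO arrays and Apln and Angpt1 to the left, whereas Kdr and Flt1 overlap.

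Junction molecules showed no shared direction. Cdh5, which encodes VE-cadherin, read 247, 345 and 274 in wild type against 158, 387 and 267 in the KO. KO array 1 was lowest and KO array 2 highest of all arrays, and the difference was -0.16 ± 0.36 (adjusted p = 0.817). A dimmer Cdh5 probe set, of mean signal 41.6, read 36.2, 109 and 41.7 against 35.3, 19.2 and 7.8. Its KO values all lay below wild type, with a difference of -1.05. Pecam1, an adhesion molecule at endothelial contacts, read 195, 202 and 258 against 241, 281 and 43.9. The first pair of KO arrays lay near or above wild type and KO array 3 far below it (-0.49 ± 0.55; 0.25 without KO array 3). Cldn5, the claudin of tight endothelial junctions, read 192, 161 and 249 against 220, 146 and 336, with overlap (0.16 ± 0.35). The adhesion molecule Esam was somewhat higher, at 383, 272 and 261 against 578, 392 and 357 (0.50 ± 0.31, adjusted p = 0.363). Icam2, a leukocyte ligand, read 90.8, 78.2 and 113 against 137, 111 and 96.1 (0.25 ± 0.29). None of these 5 passed, and 3 of 5 had a higher mean.

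Surface glycoproteins ran from -0.49 for Eng to 1.51 for Mmrn2. Mmrn2 is an endothelial matrix protein that binds the lectin Clec14a. Mmrn2 read 160, 121 and 108 in wild type against 319, 259 and 740 in the KO, without overlap. It was higher by 1.51 ± 0.40 (adjusted p = 0.0837), and by 0.49, 0.93 and 1.09 on its other 3 probe sets. Clec14a read 20.5, 49.5 and 40.6 against 71.9, 122 and 70.4, also without overlap, and was higher by 0.99 ± 0.34 (adjusted p = 0.143) and by 0.61 on a dimmer probe set. In KO array 1 Mmrn2 and Clec14a lay 1.22 and 0.78 above the wild-type mean. Ecscr, a regulator of endothelial migration, read 73.8, 171 and 137 against 131, 268 and 463 (0.99 ± 0.46, adjusted p = 0.242). Its KO array 1 lay inside the wild-type range.

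Cd34, Emcn and Plvap formed another pattern, high in KO array 1 and low in KO array 3. The sialomucin Cd34, found on capillaries and on some stromal and blood progenitors, read 220, 297 and 232 in wild type against 794, 626 and 180 in the KO (0.82 ± 0.49, adjusted p = 0.340). Emcn, the sialomucin endomucin of veins and capillaries, read 158, 169 and 142 against 306, 308 and 27.9, clearly above wild type in KO arrays 1 and 2 and lowest of all in KO array 3 (-0.05 ± 0.67). Plvap, which forms the diaphragms of fenestrated capillaries, read 277, 311 and 172 against 665, 144 and 77.8, so that only KO array 1 was high (-0.27 ± 0.63; 1.38 in KO array 1). Eng, a co-receptor for the TGF-beta family, read 347, 422 and 272 against 414, 295 and 107 (-0.49 ± 0.45), and 0.40 higher on a dimmer probe set. Robo4, a receptor that stabilises vessels, and Egfl7, a secreted regulator of vessel tubes, were flat on their brightest probe sets. Robo4 read 129, 99.2 and 102 against 111, 103 and 88.9 (-0.11 ± 0.28). Egfl7 read 189, 205 and 140 against 188, 160 and 183 (0.01 ± 0.28), while its dimmest probe set differed by -0.64, with all KO arrays below wild type.

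Nos3, the endothelial nitric oxide synthase, read 176, 162 and 175 in wild type against 270, 239 and 149 in the KO. The wild-type arrays agreed closely, KO arrays 1 and 2 lay above them and KO array 3 below (0.29 ± 0.31, adjusted p = 0.591; 0.53 without KO array 3). Neither Nos3 nor any of the surface glycoproteins passed the test.

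None of the 6 transcription factors passed. All had a higher mean, with a median difference of 0.62, or 0.49 over the 5 without Tal1, and Sox18 did so by only 0.02. Sox17, Sox18 and Sox7 make up the SoxF family, which specifies arterial and lymphatic endothelium. Sox17 read 141, 219 and 203 in wild type against 247, 296 and 446 in the KO (0.74 ± 0.33, adjusted p = 0.220), without overlap. A dimmer Sox17 probe set differed by 0.04, and the name of the brighter one marks possible cross-hybridisation. Sox7 read 86.6, 91.5 and 76.4 against 102, 138 and 139, again without overlap (0.49 ± 0.28, adjusted p = 0.322). Sox18 instead read 360, 254 and 180 against 545, 332 and 90.9, spanning the wild-type range (0.02 ± 0.55; 1.05 in KO array 1), and its sign turned in 5 of the 17 alternative settings. The ETS factor Erg read 40.6, 72.2 and 114 against 81.7, 126 and 78.8 (0.34 ± 0.36). Tal1 and Lyl1 are related helix-loop-helix factors of endothelial and blood progenitors. Tal1 read 26.7, 37.6 and 27.7 against 33.5, 55.2 and 119 (0.75 ± 0.38), with KO array 1 only 0.09 above the wild-type mean. Lyl1 read 85.5, 40 and 48.2 against 125, 93.5 and 104, without overlap (0.78 ± 0.32, adjusted p = 0.198), and 0.98 in KO array 1. Markers of red cell precursors were dim, with 5 of 7 below the filter. Among them the globin gene Hba-a1, likewise picked after its values were seen, read at most 28.6. Alas2, the haem synthesis enzyme of these cells, read 73.8, 18.1 and 21.0 against 165, 62.8 and 104 (adjusted p = 0.141; 0.0222 with the replicate block), and the erythropoietin receptor Epor differed by -0.59. Alas2, like Tal1, passed the filter only through its KO level, which fixed its direction. The part of blood cells in the Tal1 and Lyl1 values was not tested.

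Of the 2 lymphatic genes only Pdpn could be tested, and it did not pass. Prox1, the lymphatic master regulator, was dim everywhere: it read 25.0, 42.6 and 23.3 in wild type against 1.6, 1.4 and 8.2 in the KO. All KO values were below wild type, by -1.22 on the log2 scale, but with signals this close to the floor it was left out of the test. Pdpn, or podoplanin, a glycoprotein of lymphatic endothelium that fibroblasts and myoepithelial cells also carry, read 155, 165 and 142 against 274, 378 and 1011. The groups were apart, with wild type tightly clustered and KO array 3 highest (1.53 ± 0.44, adjusted p = 0.0990; 0.77 in KO array 1). Lyve1, the hyaluronan receptor of lymphatic vessels and of some macrophages, read 207, 162 and 105 against 327, 582 and 672 (1.63 ± 0.37, adjusted p = 0.0613; 0.0295 with the replicate block) with a difference of 0.77 on the dimmer of its probe sets. Beside these, the macrophage receptors Cd163 and Mrc1 rose by 1.93 ± 0.30 (adjusted p = 0.0356) and 1.67 ± 0.29 (adjusted p = 0.0446). They were the 2 of 8 macrophage genes that passed, and 7 of 8 had a higher mean. Adgre1 differed by 0.01 ± 0.41, C1qb by 0.31 ± 0.40 and C1qa by -0.65 ± 0.83. The part of macrophages in the Lyve1 values was not tested.

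**Figure D4:**
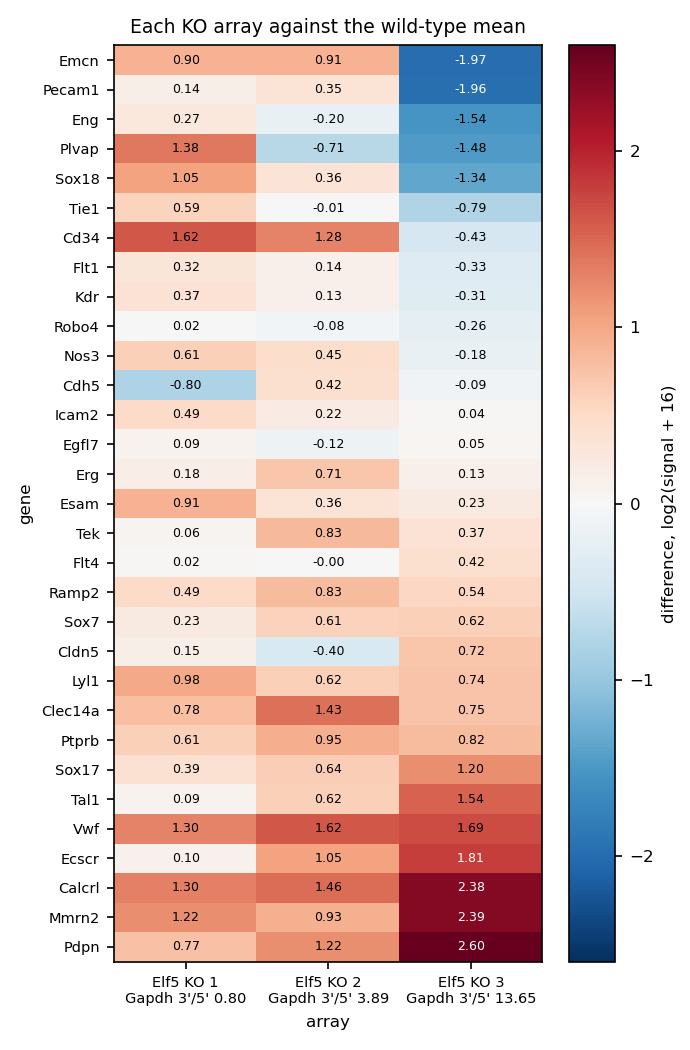
Each KO array minus the wild-type mean, log2(signal + 16), for the 31 vessel genes tested (rows, ordered by KO array 3), with the Gapdh 3'/5' ratio of each array under its column; red is higher and blue lower than the wild-type mean. KO array 3 runs from -1.97 for Emcn to 2.6 for Pdpn, a wider range than KO array 1 (-0.80 to 1.62).

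The KO arrays thus differed among themselves. KO array 1 read above all wild-type arrays for 18 of 31 vessel genes (30.3% of all genes did so) and below them for 1, Cdh5 (22.2%). KO array 2 was above for 20 (40.4%) and below for 2, Cldn5 and Plvap (28.8%). KO array 3 was above for 15 (40.3%) and below for 10 (38.1%). Those 10 were Pecam1, Emcn, Eng, Plvap, Sox18, Tie1, Cd34, Flt1, Robo4 and Nos3. KO array 3 is the one with the Gapdh ratio of 13.6, and the part of RNA quality in these low readings was not tested. Over the 31 genes the median difference from the wild-type mean was 0.49, 0.61 and 0.23 in KO arrays 1, 2 and 3, against 0.04, 0.12 and 0.04 over all genes tested. The median coefficient of variation of the vessel genes was 19.6% in wild type and 31.5% in the KO, close to the 22.7% and 32.8% of all genes.

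The other vascular genes, a list of 41 ligands, receptors and regulators, gave 36 that could be tested, of which 26 had a higher mean (median 0.53). Pgf, Adm, Arhgef15 and Gja4 passed the filter only through their KO level, and Dll4 only through its wild-type level. The filter thus fixed the direction of those genes. Of these 36, 2 rose and 1 fell, against 1.13% and 0.11% of all genes. Hey1, a repressor downstream of Notch that endothelial cells and other cells use, read 70.4, 58.3 and 51.8 in wild type against 423, 564 and 550 in the KO, with no overlap (2.79 ± 0.28, adjusted p = 0.0124). Vegfd was the other that rose. Apln, the peptide apelin made by sprouting vessels and epithelium, was the 1 that fell: it read 1043, 1712 and 1229 against 458, 161 and 76.1, all KO values below wild type (-2.74 ± 0.53, adjusted p = 0.0471). Its receptor Aplnr overlapped between groups and differed by 0.82 ± 0.47. The Notch pair of arterial endothelium, Dll4 and Notch4, differed by -0.81 ± 0.45 (0.23 in KO array 1) and 0.18 ± 0.30, Notch4 by -1.38 on a dimmer probe set. The ligand Jag1 and the receptor Notch1, named after their values were seen, read above wild type in all 3 KO arrays. Jag1 was higher by 1.55 ± 0.37 (adjusted p = 0.0680, and 0.0192 with the replicate block) and Notch1 by 0.72 ± 0.28 (adjusted p = 0.179). With the mean of all probe sets of the gene, 3 for Jag1 and 2 for Notch1, limma's adjusted p was 0.775 and 0.693. With the replicate block 9 of the 36 rose and 2 fell, against 7.7% and 4.53% of all genes. Pgf and Adm, whose direction the filter fixed, were among the 9.

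Cells around the vessels were measured through 12 pericyte and smooth muscle genes. Of these 8 had a higher mean (median 0.22), 0 passed, and the summed signal overlapped, at 13941 to 17488 in wild type and 11531 to 15346 in the KO. Acta2, Myh11 and Tagln, which smooth muscle shares with myoepithelial cells, made up 70.1% to 88.4% of each sum. Without them the other 9 summed to 1781 to 2022 in wild type and 2338 to 4270 in the KO, without overlap. Of the 12 genes, Higd1b passed the filter only through its KO level and Cspg4 only through its wild-type level, which fixed their directions. Pdgfrb, the pericyte and fibroblast receptor, read 124, 182 and 151 against 283, 416 and 1324 (1.74 ± 0.50, adjusted p = 0.0985; 0.0301 with the replicate block). Cspg4, which encodes the pericyte proteoglycan NG2, read 95.7, 83.9 and 63.1 against 73.1, 6.1 and 19.0 (-1.23 ± 0.47, adjusted p = 0.178; -0.11 in KO array 1), while its dimmer probe set differed by 1.49.

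The summed signals of the fibroblast and macrophage lists lay apart between the groups, as did that of the vessel genes. The summed signal of the 32 vessel genes was 4619 to 5330 in wild type and 7334 to 7955 in the KO, without overlap. For 10 fibroblast genes it was 11999 to 19175 and 21794 to 36254, and for 8 macrophage genes 4378 to 6298 and 7728 to 14275, also without overlap. The fibroblast sums lay apart only with Dpt, which read 1302, 892 and 971 in wild type against 3876.5, 2446 and 5261 in the KO. Without Dpt the fibroblast sum of KO array 3 lay below that of wild-type array 1. All 3 KO arrays read above wild type for 3 of 10 fibroblast and 4 of 8 macrophage genes, against 16.7% of all genes. Among fibroblast genes 9 of 10 had a higher mean (median 1.09) and 3 rose. These were the protease Fap by 1.96 ± 0.32, the matrix protein Dpt by 1.81 ± 0.34 and the receptor Pdgfra by 1.79 ± 0.36 (adjusted p = 0.0356, 0.0466 and 0.0487). The dimmer probe sets of Pdgfra differed by -0.24 and 0.76, and with the mean of its probe sets limma's adjusted p was 0.159. Fbln1 was lowest at -0.31 ± 0.43 (0.39 in KO array 1). Of the macrophage genes 7 of 8 were higher (median 0.93), 2 rose, and C1qa was lowest at -0.65 ± 0.83 (1.63 in KO array 1). Over all genes tested 53.9% had a higher mean and 1.13% rose. For 5 adipocyte genes the sums were 16267 to 19697 and 18682 to 28808, which overlapped; 0 passed, and differences ran from -0.30 ± 0.55 for Lipe (1.12 in KO array 1) to 2.22 ± 0.72 for Lep. Luminal epithelial genes summed to 44303 to 74623 in wild type and 38210 to 44475 in the KO, which overlapped. That list holds Elf5 itself and the milk protein genes Csn2 and Wap, which together made up 44.4% to 79.9% of each sum. The other 7 summed to 15025 to 21201 and 15116 to 21247. Of the 10, 3 had a higher mean, from Cldn7 at -1.22 ± 0.35 to Cdh1 at 0.93 ± 0.53. Myoepithelial sums overlapped, at 14371 to 19960 and 11622 to 16696, but this list shares Acta2, Myh11 and Tagln with the smooth muscle list. Without them the other 6 summed to 2322 to 4494 and 2428 to 5397, which also overlapped. Of the 9, 4 had a higher mean, from Cnn1 at -0.70 ± 0.36 to Trp63 at 1.25 ± 0.41, and 0 passed. The dimmer probe sets of Trp63 differed by -0.24, -0.05 and 0.48. With the replicate block 5 of 10 fibroblast and 4 of 8 macrophage genes rose, against 7.7% of all genes. Lep, Cdh1 and Trp63 also rose with the block (adjusted p = 0.0130, 0.0422 and 0.0486), and Cldn7, like Elf5, fell (0.0324). No list held a gene at a signal of 0 on any array. The part of this mix of cells in the vessel gene differences was not tested.

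**Figure D5:**
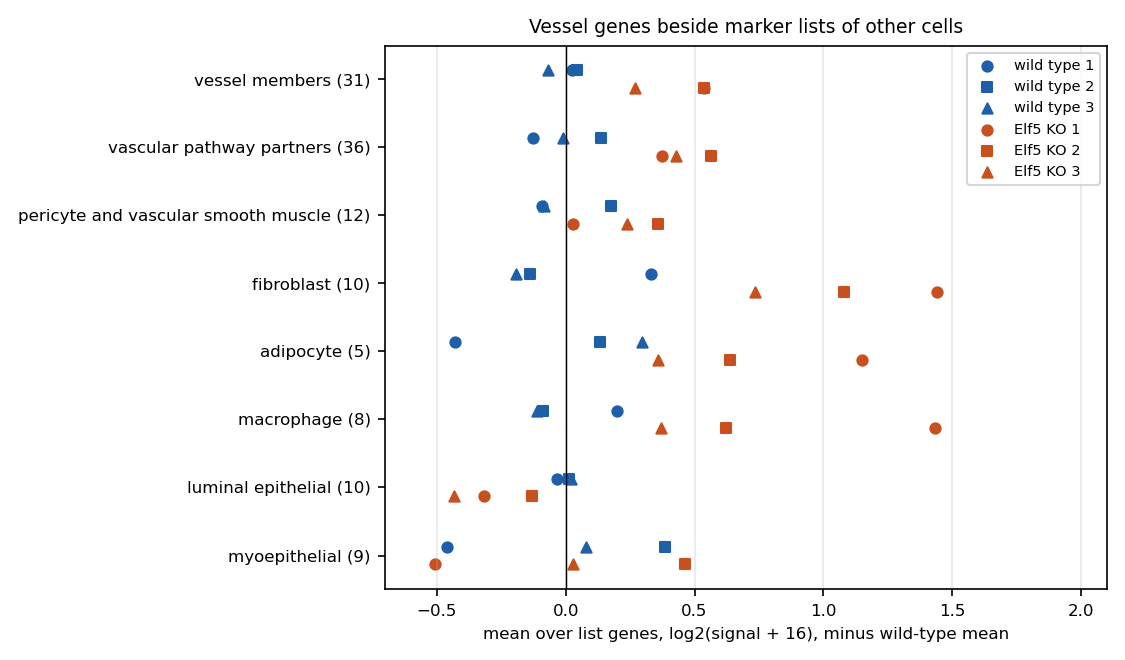
Mean over the tested genes of each list (number in brackets) on each array, log2(signal + 16), minus the wild-type mean; blue is wild type, orange Elf5 KO, and marker shape the replicate number. The vessel genes lie 0.27 to 0.54 above the wild-type mean in the KO arrays, and the fibroblast genes 0.73 to 1.44.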

How the data were processed

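The deposited intensity values are linear MAS5 signals of 45101 probe sets, made by the authors with MAS5 and affy per the submitters' processing notes, which name no version; every array has the same trimmed mean of 150. MAS5 scaling to a common mean fixes the average level, so only changes relative to other genes can be seen. From these, 64 control probe sets and those listed for several genes (932) or none (9211) were left out, and the brightest probe set (mean log2) stood for each of 18193 genes. Genes under the 40th percentile of mean log2(signal + 16) were left out. Group means were compared with limma 3.58.1 (lmFit, eBayes with trend) in R 4.3.3, tested on simulated data, over 10916 genes.

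Replicate numbers pair the arrays by their values: deviations from the group means correlated at 0.459, 0.336 and 0.291 within numbers 1, 2 and 3, and at most 0.149 across numbers. The labels do not say what a number shares, so the pairing comes from the data. Alternatives were the replicate block, each array left out, only arrays with a Gapdh ratio under 2, the Gapdh ratio as a covariate, quantile normalization, equal medians, other pseudocounts, no filter, no trend and other rules for probe sets. The vessel genes and the other lists were chosen with earlier results of these data known. All vessel genes are named; of the vascular list, those that passed, ligands and receptors of the vessel genes and the 3 smallest p in each direction; of other lists, those that passed and the highest and lowest difference. Ccl21a, Gp1ba, Hbb-b1, Ahsp, Plin1, Cfd and Adrb3, among other listed genes, were not analysed here. The number of arrays limits the precision. Promoters came from the RefSeq table (GRCm38.p6), with 14 vessel genes not matched.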

Additional observations from a re-analysis of the deposited data

How the results depend on the processing

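The median difference of the vessel genes stayed between 0.24 and 0.49 in every alternative, and 18 of 31 had a higher mean in all of them. Those 18 include Clec14a and Tal1, whose direction the filter fixed. Counts of calls were far less stable. Of all genes 135 were called; the replicate block, which follows the pairing of arrays by number, called 1335, a pseudocount of 1 called 85, no filter 56, equal medians 9, the mean of all probe sets 69, arrays with a low Gapdh ratio 0 (1013 by limma at an unadjusted p under 0.05) and the Gapdh covariate 0 (1112). Leaving out 1 array gave 0 to 1206: 9, 0 (1553 unadjusted) and 1 without wild-type array 1, 2 or 3, and 1206, 1 and 6 without KO array 1, 2 or 3. Vessel genes called higher numbered 2, and 5 with the block, 1 with a pseudocount of 64 and 0 with a pseudocount of 1, no filter, equal medians, the mean of probe sets, low-ratio arrays, the covariate and, chosen after seeing the data, the probe set of highest linear mean; leaving out 1 array gave 0 to 4. The causes were not tested, except that fewer arrays were fitted in some. Vessel genes called lower numbered 0 in every setting. The main comparison called only 0.11% of all genes lower, and some alternatives called 0 genes, so in those this count had little room to differ.

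Directions turned, none of them called in the main comparison, in these cases. With low-ratio arrays: Pecam1 0.14, Tie1 0.59, Eng 0.27, Emcn 0.90, Robo4 0.019, Plvap 1.38, Dll4 0.23, Notch4 -0.10, Epor 0.021, Fbln1 0.39, Lipe 1.12, C1qa 1.63 and Cdh1 -0.13. With the Gapdh covariate: Pecam1 0.45, Tie1 0.59, Flt4 -0.024, Eng 0.33, Emcn 1.23, Robo4 0.0041, Cldn5 -0.083, Plvap 1.06, Fbln1 0.39, Lipe 0.89 and C1qa 1.21. With equal medians: Sox18 -0.053, Kdr -0.0047, Flt1 -0.022, Egfl7 -0.059 and Vegfb -0.024. With the mean of probe sets: Flt1 -0.37, Flt4 -0.069, Egfl7 -0.16, Angpt2 -0.12, Notch4 -0.50, Cspg4 0.13 and Lipe 0.0074. A pseudocount of 1 gave Sox18 -0.00053, a pseudocount of 64 Emcn 0.081, and quantile normalization Tie1 0.045, Emcn 0.023 and Egfl7 -0.0072. Leaving out 1 array moved Sox18 between -0.49 and 0.70, Pecam1 between -0.91 and 0.25, Cdh5 between -0.45 and 0.16, Tie1 between -0.40 and 0.29, Kdr between -0.16 and 0.48, Flt1 between -0.12 and 0.23, Eng between -0.87 and 0.033, Emcn between -0.53 and 0.91, Cldn5 between -0.13 and 0.43, Egfl7 between -0.14 and 0.11, Plvap between -1.10 and 0.33, Vegfb between -0.31 and 0.45, Fbln1 between -0.67 and 0.13, Lipe between -1.01 and 0.25, and C1qa between -1.79 and 0.23.

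The arrays number 3 per group, which limits the precision, and signals near the floor, as for Prox1, have no reliable order. The list sums without their brightest genes or without Dpt, and the counts without Clec14a and Tal1, were chosen after seeing the data.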
